A study of Mus musculus with 2 samples.

Results

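The genes described here encode the transporters that carry calcium out of a cell across its plasma membrane: the sodium-calcium exchangers Slc8a1, Slc8a2 and Slc8a3, the potassium-dependent exchanger Slc24a3, and the plasma membrane calcium ATPases Atp2b1, Atp2b2, Atp2b3 and Atp2b4. They were chosen by gene symbol, as all probe sets that the platform annotation assigns to exactly 1 of these 8 symbols. This gave 18 of 45037 non-control probe sets and 8 of 18193 named genes. The set was put together with the large difference of Slc8a3 on these arrays already known, so every value below is a description and none is tested.

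The study set out to find which osteoblast transcripts change when the cells meet factors from different prostate cancer lines. The cells were primary mouse osteoblasts. They were kept in alpha-MEM to which fetal calf serum had been added at 10%, with beta-glycerophosphate at 10 mM and ascorbic acid at 50 µg/ml over the 10 days of differentiation, and went without serum for the last night. A 6-hour exposure followed, to conditioned medium of MDA-PCa2b cells (1 array) or of PC-3 cells (1 array). Both are established human prostate cancer lines derived from bone metastases, MDA-PCa2b known for bone-forming and PC-3 for bone-destroying lesions. The labels give no mouse strain, sex or age and no count of cultures or animals behind each RNA. No unexposed osteoblasts were analysed here. "Higher" and "lower" therefore mean the PC-3 array compared with the MDA-PCa2b array throughout. With 1 array per medium there was no spread between cultures to set a difference against.

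An osteoblast lays down bone mineral by moving large amounts of calcium to the matrix. Sodium-calcium exchangers use the sodium gradient kept by the sodium pump to drive calcium out in bulk, and can run backwards when that gradient weakens. Slc24a3 also moves potassium in the process. Calcium ATPases spend ATP, bind calcium more tightly and hold the resting level low. Of the sodium-calcium exchangers, Slc8a1 is the main form of heart, Slc8a2 of brain, and Slc8a3 is found in skeletal muscle, brain and osteoblasts. Atp2b1 and Atp2b4 are widespread pumps, while Atp2b2 and Atp2b3 belong mostly to nerve tissue.

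The values are probe set signals, the brightness that the Affymetrix software derived from all probes aimed at a transcript. The floor was the median signal of each array, 56.7 for MDA-PCa2b and 57.7 for PC-3; lower signals were raised to it before log2 was taken. A gene is called measured where it was above the floor on both arrays, and its log2 ratio is that of its brightest probe set. Signals of different probe sets depend on their probes, so no gene's level is ranked against another's. Of the 18 probe sets 6 passed the floor on both arrays, 1 on the PC-3 array alone and 11 on neither. By brightest probe set this left 3 measured genes (Slc8a3, Slc24a3 and Atp2b1), 1 gene that passed the floor on the PC-3 array alone (Atp2b4) and 4 genes at the floor throughout.

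**Figure D1:**
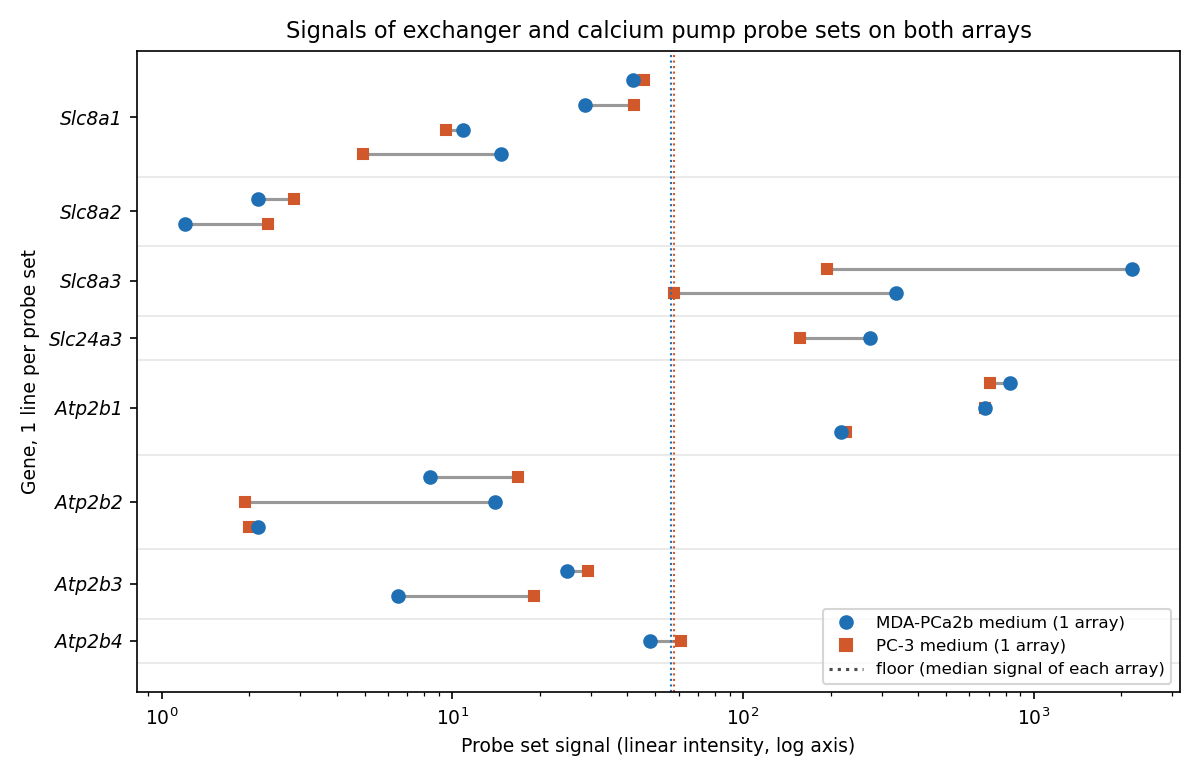
Signals of all 18 probe sets (horizontal log axis, linear intensity), 1 line per probe set grouped by gene, with a circle for the MDA-PCa2b array, a square for the PC-3 array and dotted lines at the floors of 56.7 and 57.7. The 2 Slc8a3 probe sets show the widest gap above the floors, from 2183 to 194 and from 337 to 57.7, while the circles and squares of Atp2b1 nearly coincide.

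Upstream sequence is shown for the 3 measured genes, because they were the only members whose transcripts gave a ratio and they differ from each other in it. The windows are the 250 bases before an annotated start in RefSeq's promoter table (build GRCm38.p6), 5′ to 3′ on the gene's strand, taking the most upstream start where the table has several. Capitals mark every match, on either strand, to the E-box letters CANNTG or to the GC box letters GGGCGG. The Slc8a3 window is chr12:81333181-81333430 on the minus strand, that of Slc24a3 is chr2:145167525-145167774 on the plus strand, and that of Atp2b1 is chr10:98914392-98914641 on the plus strand.
Slc8a3: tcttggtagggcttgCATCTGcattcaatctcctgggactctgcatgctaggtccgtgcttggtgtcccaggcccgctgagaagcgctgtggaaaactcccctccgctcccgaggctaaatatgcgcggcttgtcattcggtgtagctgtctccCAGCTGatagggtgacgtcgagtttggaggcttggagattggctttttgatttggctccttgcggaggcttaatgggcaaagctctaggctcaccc
Slc24a3: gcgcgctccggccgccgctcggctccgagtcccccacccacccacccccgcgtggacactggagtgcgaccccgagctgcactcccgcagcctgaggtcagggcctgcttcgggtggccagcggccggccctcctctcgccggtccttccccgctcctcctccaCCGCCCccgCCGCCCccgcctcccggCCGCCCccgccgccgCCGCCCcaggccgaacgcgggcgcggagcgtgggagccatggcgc
Atp2b1: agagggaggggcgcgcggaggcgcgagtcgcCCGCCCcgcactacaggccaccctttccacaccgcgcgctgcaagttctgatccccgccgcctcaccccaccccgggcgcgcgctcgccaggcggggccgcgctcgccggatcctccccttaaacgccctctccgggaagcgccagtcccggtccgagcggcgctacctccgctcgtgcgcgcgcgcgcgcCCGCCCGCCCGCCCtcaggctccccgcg

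The windows differ in composition. G and C made up 56% of the Slc8a3 window, 80.8% of the Slc24a3 window and 78.4% of the Atp2b1 window, against a median of 52.4% over all 32851 windows of the same length. The dinucleotide CG occurred 11 times in the Slc8a3 window, 35 times in that of Slc24a3 and 43 times in that of Atp2b1. The Slc8a3 window held 2 E-box matches, which begin at -235 and -96 from the start, and no GC box match. An E-box match was present in 66.2% of all windows, so its presence is common. Members without a measured ratio shared this pattern. The Slc8a1 window (50.4% G and C) and the Atp2b4 window (45.6%) each held an E-box match and no GC box match. The Slc8a2 window (63.2%) held a GC box match and no E-box match, and the Atp2b2 windows were mixed. The windows of Slc24a3 and Atp2b1 held 4 GC box matches each and no E-box match; a GC box match was present in 32.7% of all windows. In the Atp2b1 window 3 of the GC box matches overlap, which is why they appear as a single run of capitals. These traits depend on the start taken. A further Slc24a3 window, not shown, had 63.6% G and C, 14 CG and no GC box match. A further Atp2b1 window had 80.8% G and C, 41 CG and 3 GC box matches.

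Further motifs were searched on both strands in the 3 windows shown. The NF-kB letters, GGG and CC with 5 bases of any kind between them, matched 2 times in each of the Slc24a3 and Atp2b1 windows and not in that of Slc8a3, with a match in 45.8% of all windows. These letters share G and C runs with the GC box, so the matches can overlap. The AP-1 letters TGANTCA (6.75% of all windows), the cAMP response element TGACGTCA (1.55%), the STAT letters TTCNNNGAA (7.02%) and the Runx letters TGTGGT (14%) matched in none of the 3 windows. A match to such short letters is a description of the sequence, and a missing match says only that these letters are not in this window. Of the 8 genes, 7 had at least 1 window in the table, 11 windows in all.

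Of the measured exchanger genes, Slc8a3 differed most between the media. Its brightest probe set (1440962_at) read 2183 on the MDA-PCa2b array and 194 on the PC-3 array. The PC-3 signal was lower but still above the floor. The difference was 11.2-fold, a log2 ratio of -3.49. The other probe set (1450311_at) gave 337 and 57.7, a 5.84-fold difference with a log2 ratio of -2.55. Its PC-3 signal lay just above the floor, where transcript and background are hard to separate, so the size of this ratio is less certain than that of the first.

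Both Slc8a3 probe sets gave the same direction but not the same size, and their log2 ratios were 0.95 apart. Over 4924 genes with several measured probe sets, log2 ratios of probe sets scattered around the mean of their gene with an SD of 0.24. The gap between the Slc8a3 probe sets was 3.89 times that SD. A gap between probe sets spreads more widely than a single probe set around its mean, so this multiple overstates how unusual the gap was. The scatter SD describes probe sets on a single pair of arrays and does not include the spread between cultures. It was 0.29 in the lowest and 0.19 in the highest tertile of signal.

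Across all 10649 measured genes, Slc8a3 had the second lowest log2 ratio and the 10th largest ratio by size. For these genes the log2 ratios had a median of -0.04 and an SD of 0.44. At least 2-fold lower signals were given by 179 genes, or 1.68%, and at least 2-fold higher signals by 202 genes, or 1.9%. Of the 3 measured exchanger and pump genes 1, Slc8a3, was at least 2-fold different; in either direction this held for 3.58% of all measured genes. The gene was in the set because of this ratio, so nothing is read from that count.

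**Figure D2:**
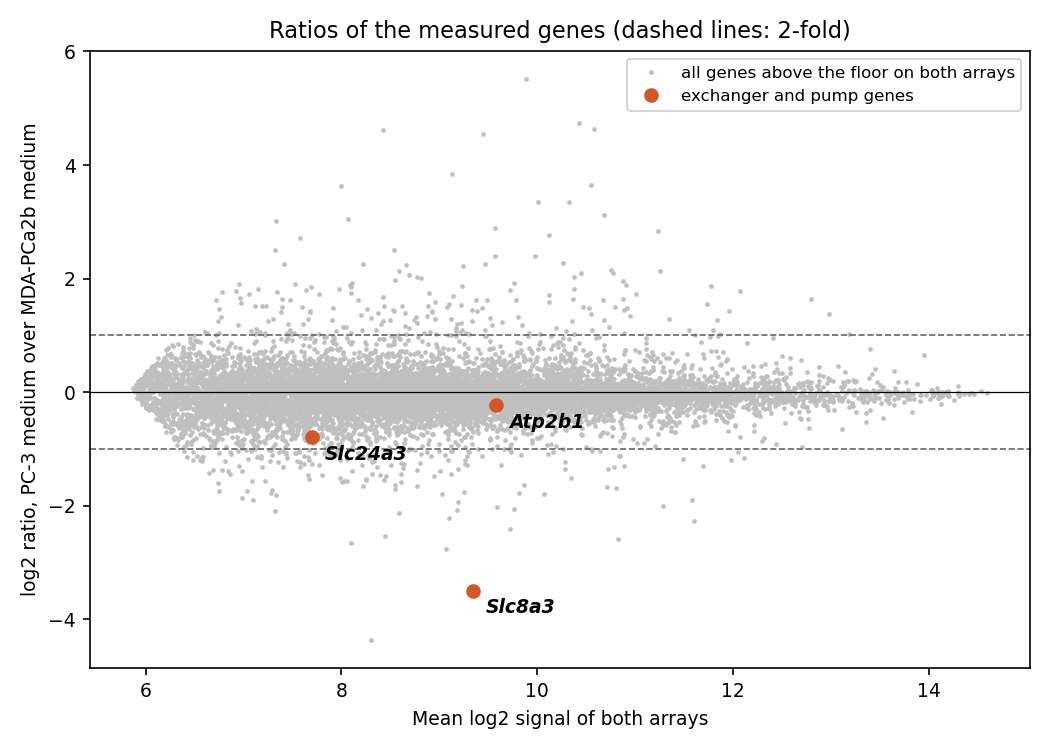
Log2 ratio of PC-3 over MDA-PCa2b medium (vertical axis) against the mean log2 signal of both arrays (horizontal axis) for 10649 genes above the floor on both arrays, in grey, with the 3 measured exchanger and pump genes as filled circles and dashed lines at 2-fold. Slc8a3 at -3.49 lies far below the cloud of genes. Slc24a3 at -0.80 and Atp2b1 at -0.22 lie inside the 2-fold lines and within the cloud, Slc24a3 in its lower part.

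Slc24a3, which exchanges calcium and potassium together for sodium, was also lower, by less. Its only probe set (1424308_at) gave 273 on the MDA-PCa2b array and 158 on the PC-3 array. Both signals were above the floors, and the difference was 1.74-fold, a log2 ratio of -0.80. In rank this was the 318th lowest of 10649 measured genes. At least 1.5-fold lower signals were given by 663 genes, or 6.23%. By log2 ratio, 2.98% of the measured genes lay below Slc24a3, so a difference of its size was not confined to this gene. There was no other probe set of Slc24a3 to compare it with.

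Slc8a1, the cardiac type of exchanger, stayed below the floor on both arrays by all 4 of its probe sets. Their signals ran from 10.9 to 41.9 on the MDA-PCa2b array and from 4.94 to 45.8 on the PC-3 array, and 2 of the 4 were higher with PC-3 medium. Slc8a2, the brain type, was far below the floor in both media, at 2.15 and 1.20 on the MDA-PCa2b array and 2.85 and 2.32 on the PC-3 array by its 2 probe sets. No ratio is given for either gene, because all their signals lay below the floors. Low amounts of these transcripts cannot be told from none here. Slc8a3 was thus the only one of the 3 sodium-calcium exchanger genes above the floor, and it was so in both media.

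Among the calcium pumps, Atp2b1, the widespread form, was the only measured gene, and its signals were close in both media. Its brightest probe set (1428937_at) gave 828 on the MDA-PCa2b array and 709 on the PC-3 array, a log2 ratio of -0.22. The next (1428936_at) gave 681 and 678, and the third (1452969_at) 218 and 225, with log2 ratios of -0.01 and 0.05. The 3 ratios lay on both sides of 0 and were 0.27 apart. That gap was 1.13 times the scatter SD of single probe sets around the mean of their gene. The largest ratio by size was 0.92 times that SD, which does not include the spread between cultures. By log2 ratio, 24.5% of the measured genes lay below Atp2b1.

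Atp2b4, the other widespread pump gene, was near the floor: its probe set (1445701_at) gave 48.0 on the MDA-PCa2b array and 61.4 on the PC-3 array. Only the PC-3 signal was above the floor, by a small margin, and the bound is at least 1.08-fold higher. The pump genes of nerve tissue gave no measurable signal. Atp2b2 ranged from 2.14 to 14.0 on the MDA-PCa2b array and from 1.94 to 16.8 on the PC-3 array over its 3 probe sets, and Atp2b3 from 6.53 to 24.7 and from 19.1 to 29.4 over its 2 probe sets. The Atp2b2 probe sets did not share a direction: 1 was higher with PC-3 medium and the others lower.

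Other genes of calcium handling were taken as 10 lists of 102 genes in all, of which 88 had a probe set and 52 were measured. Past the 2-fold line lay 3 of these 52 genes on the higher side and 1 on the lower, together 7.69% against 3.58% of all measured genes. Their median log2 ratio was -0.02, close to the -0.04 of all measured genes, and 27 of 52 had a log2 ratio below 0. A further 2 passed the floor on a single array and 34 on neither.

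The 4 genes past 2-fold were a scaffold gene and members of the calcineurin pathway. Slc9a3r1, which encodes a PDZ scaffold of membrane transporters, had signals of 841 and 2381 (2.83-fold higher), and its remaining probe sets read 1.30 and 1.41 on the log2 scale. It belongs to the list of calcium pump partners, in which Nptn and Bsg, whose products are subunits of the plasma membrane pumps, gave log2 ratios of -0.08 and 0.15. It was the only one of the 4 measured partner genes past 2-fold, and their median log2 ratio was 0.04.

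Calcineurin is the calcium-activated phosphatase that turns on NFAT transcription factors, and the Rcan proteins bind and restrain it. All 11 genes of this list were measured, with 2 past 2-fold on the higher side, 1 on the lower and a median log2 ratio of -0.05. That median was 0.51 without probe sets that can match several transcripts. This setting leaves no probe set of Rcan1 or Rcan2 and drops the brightest probe sets of Ppp3cc, Nfatc3 and Nfatc4. Rcan1 and Rcan2 had the highest and lowest log2 ratios of the list, so their loss alone would not move the median. The Rcan genes went opposite ways. Rcan1, itself an NFAT target, had signals of 610 and 1383 (2.27-fold higher); its 2 probe sets gave 1.18 and 1.20 on the log2 scale. Rcan2 had signals of 531 and 168 (3.15-fold lower), with log2 ratios of -1.66 and -0.92, and Rcan3 a log2 ratio of -0.14. Nfatc2 was 2.04-fold higher by its brightest probe set (97.2 and 198), but the other gave a log2 ratio of -0.09, so its direction is uncertain.

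The sodium pump keeps the gradient that exchangers run on. Of 10 genes of this list with a probe set 6 were measured, none of them 2-fold different, with a median log2 ratio of 0.02. The largest ratios were those of the regulatory subunit genes Fxyd6 (-0.73 on the log2 scale, signals of 383 and 230) and Fxyd2 (0.62 on the log2 scale, 84.7 and 130.0). The other Fxyd2 probe sets gave 0.16 and -0.22, so its direction is uncertain. The beta subunit gene Atp1b3, with signals of 2905 and 2605, had a log2 ratio of -0.16.

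Of 12 genes for store pumps and release channels with a probe set 4 were measured, none was 2-fold different, and the median log2 ratio was 0.11 (-0.14 under a lower floor, the 25th percentile, which admits more genes). Atp2a2, the widespread pump of the endoplasmic reticulum, had signals of 3854 and 4338 (log2 ratio 0.17, by its other probe sets from 0.09 to 0.74), and the release channel gene Itpr2 a log2 ratio of -0.38. All 3 ryanodine receptor genes were at the floor on both arrays. Store-operated entry genes had a median log2 ratio of 0.11 over 6 measured genes; the largest log2 ratios were 0.46 for the channel gene Orai2, whose other probe set gave -0.52, and 0.33 for Orai3.

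Channels that let calcium in gave no 2-fold difference by their brightest probe sets either. Of 16 voltage-gated channel genes with a probe set 6 were measured, with a median log2 ratio of -0.02. The L-type channel gene Cacna1d had signals of 140 and 83.9 (log2 ratios of -0.73 and -0.58 by its 2 probe sets), and the beta subunit gene Cacnb2 a log2 ratio of -0.45. Other entry channels had a median log2 ratio of -0.02 over 7 measured genes. The largest ratios were those of the ATP-gated channel genes P2rx4 (0.71 on the log2 scale) and P2rx7 (0.53). The other P2rx4 probe sets gave 1.04, which is past 2-fold, and 0.13, and the other P2rx7 probe set gave 0.14.

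Of the remaining lists, the mitochondrial genes had the lowest median among those with over 1 measured gene, -0.15 on the log2 scale over 6 genes, and none was 2-fold different. Mcu, the pore of the mitochondrial calcium uniporter, had signals of 377 and 204 (log2 ratio -0.89) by its only measured probe set, and its small subunit gene Smdt1 a log2 ratio of -0.32. Among other exchangers only Slc8b1, the mitochondrial sodium-calcium exchanger, was measured, with signals of 124 and 169 (log2 ratio 0.45), while 3 further potassium-dependent exchanger genes were at the floor. Among buffers and the calcium receptor only Pvalb was measured (log2 ratio -0.20), close to the floor at 74.6 and 65.1.

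**Figure D3:**
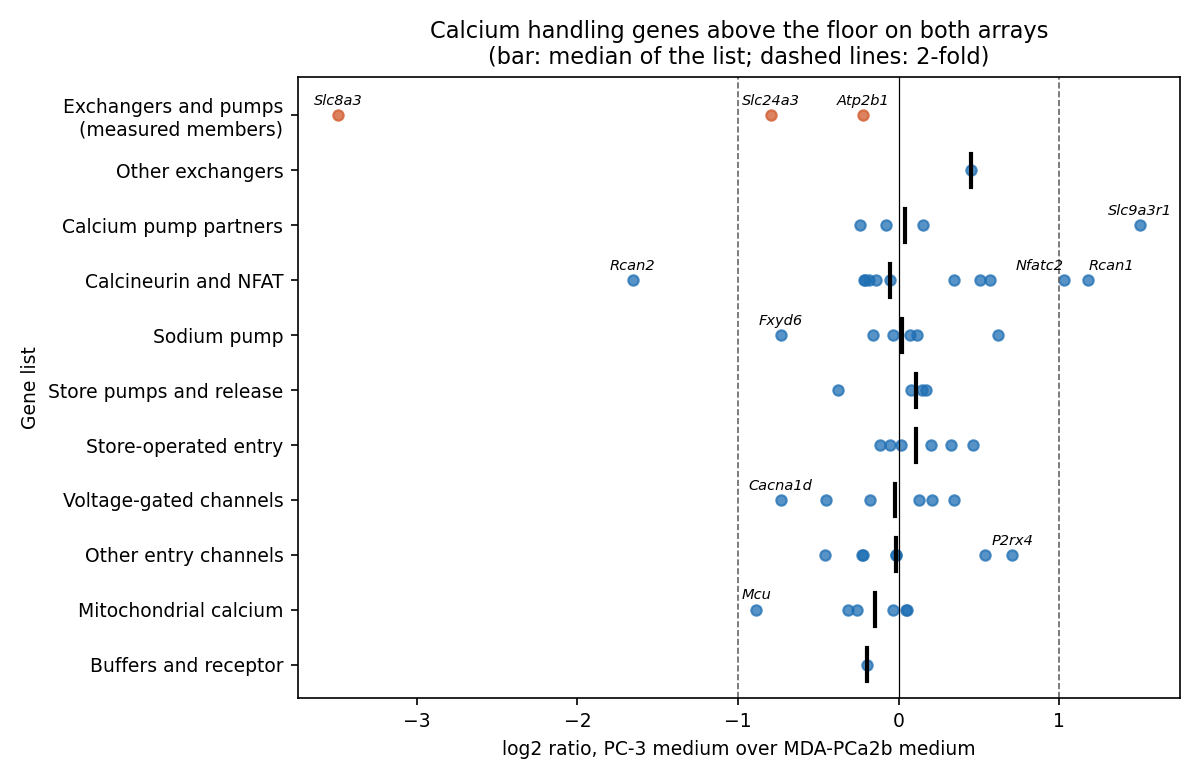
Log2 ratios of PC-3 over MDA-PCa2b medium (horizontal axis) for the measured genes of each calcium handling list (rows), 1 point per gene, with a bar at the median of each list and dashed lines at 2-fold. Slc8a3 at -3.49 lies beyond every other point, and 4 of the 52 list genes lie outside 2-fold: Slc9a3r1, Rcan1 and Nfatc2 on the higher side and Rcan2 on the lower.

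Of 14 listed osteoblast markers, Runx2, Bglap, Bglap2 and Spp1 had no probe set assigned to them alone. The remaining 10 all passed the floor on each array, with summed signals of 101099 and 91614. Every one of these 10 had a log2 ratio below 0, with a median of -0.23, where 5957 of all 10649 measured genes were below 0. At least 2-fold lower were 2 of the 10, against 1.68% of all measured genes: Ifitm5 (4442 and 741) and Dmp1 (1765 and 426), genes of mineralising osteoblasts and osteocytes. Of 13 macrophage and osteoclast markers 10 passed it on each array too, among them Csf1r and Adgre1, with summed signals of 13793 and 13996, a median log2 ratio of 0.24 and no 2-fold difference; Calcr, Dcstamp and Ocstamp were at the floor. Of the skeletal muscle markers, a tissue in which Slc8a3 is known to be active, 0 of 12 passed it on both arrays and 3 on a single array, with summed signals of 251 and 289 and Myod1 and Myog at the floor. Neuron markers passed it on both arrays in 1 of 12 genes and on a single array in 3 (summed signals 528 and 514). These 3 went different ways: Gap43 passed on the PC-3 array (43.1 and 133), Tubb3 (94.6 and 45.9) and Rbfox3 (70.8 and 51.2) on the other. Endothelial markers passed the floor on both arrays in 0 of 8 genes (137 and 135). Smooth muscle markers did so in 5 of 7 (23806 and 17669), with Myh11 and Lmod1 at the floor. Of these 5 smooth muscle markers 4 had a log2 ratio below 0, with a median of -0.43, and none was 2-fold different. In a bulk sample, fewer cells of a type and less RNA per cell cannot be told apart, and the part of the osteoblast and smooth muscle markers in the Slc8a3 difference was not tested.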

How the data were processed

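The authors deposited a linear intensity per probe set, computed in GCOS 1.4 by MAS5 according to the labels and per the submitters' processing notes. Scaling target and detection calls: not given in the sources used here. The mean without the lowest and highest 2% was 300.002 on both arrays. Of 45101 probe sets 64 were controls; 34958 had 1 gene in the platform annotation, 932 several and 9211 were not listed, and no probe set with several genes was named. Each array's 50th percentile over non-control probe sets served as floor, and ratios were log2 differences of PC-3 minus MDA-PCa2b medium. Precision is limited by having 1 array per medium, which allows neither an SD nor a test. Of each list the genes at least 2-fold different were named, at most the 4 largest, or else the 2 with the largest ratios; others named (Nptn, Bsg, Rcan3, Atp1b3 and single marker genes) were picked with their values in view. Members and lists were chosen with earlier results of these data known. Promoter windows came from RefSeq (GRCm38.p6). Scripts (Python 3.11.15, pandas 2.3.3) were tested on simulated data. Alternatives were other floors, log2(signal + 16), quantile normalisation, centring, averaging probe sets, leaving out probe sets shared by transcripts, and other thresholds.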

Additional observations from a re-analysis of the deposited data

How the results depend on the processing

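The log2 ratio of Slc8a3 was negative and past 2-fold under all 7 alternative ways of computing it. A floor at the 75th percentile put its PC-3 signal at the floor and made the ratio a bound of -2.86, and the mean of its probe sets was -3.02. Slc24a3 and Atp2b1 moved by less than the probe set scatter where they were measured; under the higher floor Slc24a3 was at the floor on both arrays. The count of 1 member gene at least 2-fold different was 0 with that floor and 2 at a threshold of 1.5-fold. Over all genes, the counts higher and lower were 426 and 382 under a floor at the 25th percentile, 90 and 56 under one at the 75th, 527 and 436 with log2(signal + 16), 552 and 663 at 1.5-fold, and 79 and 36 at 3-fold. With the lower floor Slc8a1, Atp2b3 and Atp2b4 gave log2 ratios of 0.13, 0.25 and 0.36. In the calcium handling lists the 3 genes higher and 1 lower became 2 and 0 without probe sets shared by transcripts, which leaves out Rcan1 and Rcan2, 4 and 3 under the lower floor, and 2 and 0 under the higher. The median of the other exchangers turned from 0.45 to -0.36 with log2(signal + 16), which admits genes below the floor. No paired analysis was possible because each medium had 1 array.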

Other observations

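The genes beside the measured exchangers were looked up after the values of Slc8a3 were seen, as the 3 genes with a probe set on each side in RefSeq's order. Around Slc8a3, whose log2 ratio was -3.49, none of the 3 measured neighbours was lower to a like degree: Srsf5 gave 0.35, Smoc1, which encodes a secreted modular calcium-binding protein, 0.70 (signals of 204 and 331) and Cox16 -0.18. Adam4 passed the floor on the MDA-PCa2b array alone (59.5), and Slc10a1 and Gm4787 were at the floor on both arrays. Around Slc24a3 the log2 ratios ran from -0.87 for Dtd1 (772 and 422) to 0.75 for Rin2 (1473 and 2472), with -0.34 for Smim26 and 0.13 for Naa20, while Scp2d1 and Gm39954 were at the floor.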
